A study of Mus musculus with 6 samples.

Results

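The 10 genes described here are myeloid and macrophage genes of the mouse: the growth factor receptor genes Csf1r and Csf2rb, the transcription factor gene Spi1, the pan-leukocyte surface gene Ptprc, the adaptor genes Tyrobp and Fcer1g, and the lysosomal and granule genes Cd68, Lyz2, Acp5 and Mpo. They were chosen by name from 19342 listed genes, with their counts and ratios in these 6 libraries already known, so what follows describes their levels and tests nothing. Of the 10, 9 could be placed in all 6 libraries, and Lyz2 could be placed in the untreated libraries alone.

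Mesoderm progenitor cells were isolated from C57BL/6 mouse embryos, and total RNA was sequenced in 6 libraries, 1 per condition, to examine how growth factors affect their specification. The series title places the cells in the tailbud. All cultures used medium with 10% fetal bovine serum on a feeder layer of wild-type C57BL/6 mouse embryonic fibroblasts whose division was blocked with mitomycin C, so each library may hold RNA of feeder cells as well. In 2 groups no growth factor was given and cells had been cultured for 0 h or 96 h. In the other 4, recombinant human proteins were added after 96 h: BMP4 alone or together with FGF8 (both 5 h), and BMP4 alone or together with FGF4 (both 11 h). The 5 h groups are labelled 101 h and the 11 h groups 107 h in culture, and neither has an untreated control of its own culture time. FGF8 was used at 5 h and FGF4 at 11 h, so factor and time cannot be told apart between those libraries.

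Macrophages and other myeloid cells develop from haematopoietic progenitors, and in the mouse embryo the earliest of them come from the yolk sac. PU.1, the protein of Spi1, drives the myeloid programme and activates Csf1r, the receptor for the cytokines CSF1 and IL-34 on which macrophages depend. Tyrobp (DAP12) and Fcer1g (the Fc receptor gamma chain) carry ITAM motifs that signal for partner receptors, Cd68 and Lyz2 (lysozyme) are used as macrophage markers, Acp5 is the acid phosphatase of osteoclasts and some macrophages, and Mpo is the peroxidase of granulocyte and monocyte precursors. Csf2rb, the beta chain shared by the receptors for IL-3, GM-CSF and IL-5, and Acp5 are not restricted to macrophages. Megakaryocytes and mast cells also use parts of this set.

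RefSeq promoter windows on build GRCm38.p6, from 250 bases before to 50 bases after a start site, were matched for 6 of the 10 genes: Ptprc, Cd68, Fcer1g, Lyz2, Acp5 and Mpo. Csf1r, Spi1, Tyrobp and Csf2rb were not matched. The 3 windows below are shown because they hold GAGGAA, the core letters of a PU.1 site, on either strand. They were also picked for their RNA from 0 h to 96 h. Mpo and Ptprc rose from 0 counts, while Cd68 had a ratio of 1.05 (0.914 to 1.22). Capitals mark GAGGAA or its reverse complement.

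Mpo, chr11:87793534-87793833, plus strand: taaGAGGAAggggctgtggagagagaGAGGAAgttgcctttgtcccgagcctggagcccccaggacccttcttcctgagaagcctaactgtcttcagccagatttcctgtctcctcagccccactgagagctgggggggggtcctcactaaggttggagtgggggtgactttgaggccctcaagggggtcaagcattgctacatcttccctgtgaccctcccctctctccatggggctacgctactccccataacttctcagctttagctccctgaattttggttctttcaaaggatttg

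Cd68, chr11:69666121-69666420, minus strand: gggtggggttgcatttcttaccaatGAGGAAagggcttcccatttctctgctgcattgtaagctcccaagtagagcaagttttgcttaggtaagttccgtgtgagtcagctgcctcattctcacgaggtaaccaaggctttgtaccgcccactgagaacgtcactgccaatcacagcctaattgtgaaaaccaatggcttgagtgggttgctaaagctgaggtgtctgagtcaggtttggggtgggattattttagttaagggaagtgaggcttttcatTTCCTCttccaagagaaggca

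Ptprc, first window, chr1:138175256-138175555, minus strand: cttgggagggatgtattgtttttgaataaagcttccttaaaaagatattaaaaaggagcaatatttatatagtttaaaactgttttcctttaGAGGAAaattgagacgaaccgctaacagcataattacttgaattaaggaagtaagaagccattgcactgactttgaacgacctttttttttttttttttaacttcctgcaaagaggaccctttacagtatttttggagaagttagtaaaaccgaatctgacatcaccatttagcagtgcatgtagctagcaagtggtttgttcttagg

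Mpo holds 2 matches on its own strand, at -247 and -224, and both extend to GAGGAAG. Cd68 holds 2, at -225 on its own strand and at 29 on the opposite strand, and Ptprc holds 1 at -158. The second Ptprc window and those of Fcer1g, Lyz2 and Acp5 hold none. Of 32851 promoter windows of this length, 28.3% hold GAGGAA and 13.6% hold GAGGAAG on either strand. Such matches are thus common, and a match alone does not show that PU.1 binds there. Searched on both strands, the RUNX letters TGTGGT were found in Fcer1g and Lyz2 (16.8% of all windows), and the C/EBP letters TTGCNNAA in Cd68 (10.8% of all windows). GAGGAAG overlaps GAGGAA by its construction.

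Deposited totals ran from 179196459 (BMP4 11 h) to 272743104 counts (96 h), and 3 counts, the floor used against a count of 0, correspond to 0.0110 to 0.0167 CPM of the deposited total. Levels are CPM, library-scaled counts on TMM effective library sizes, each with a 95% counting interval that covers counting error only. Counts of the 4 treated libraries are deposited out of register with the gene names and were aligned to them in order, and 17070 genes were placed securely. The libraries labelled 5 h lay nearer to 0 h than to 96 h: across genes, log2 counts of BMP4 5 h correlated at 0.990 with 0 h and 0.964 with 96 h, while its label gives 101 h in culture. No library has a replicate, so no difference has a p-value.

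Between a pair of libraries, a gene was counted as different by the fold rule when the ratio after adding 0.5 CPM was at least 2-fold and the counting interval of the plain ratio excluded 1, among 13856 genes with at least 1 CPM in some library. That rule can hardly count genes under 1 CPM, and Spi1, Ptprc and Tyrobp never reach it: their highest levels are 0.539, 0.511 and 0.251 CPM. Fcer1g and Csf1r lie just inside, at 1.03 and 1.06 CPM. An interval rule, chosen after the data were seen, therefore counts a gene when the whole 95% interval of the plain ratio lies beyond 2-fold, among 17067 genes with at least 10 counts in some library. "Rose" and "fell" below refer to this interval rule.

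**Figure D1:**
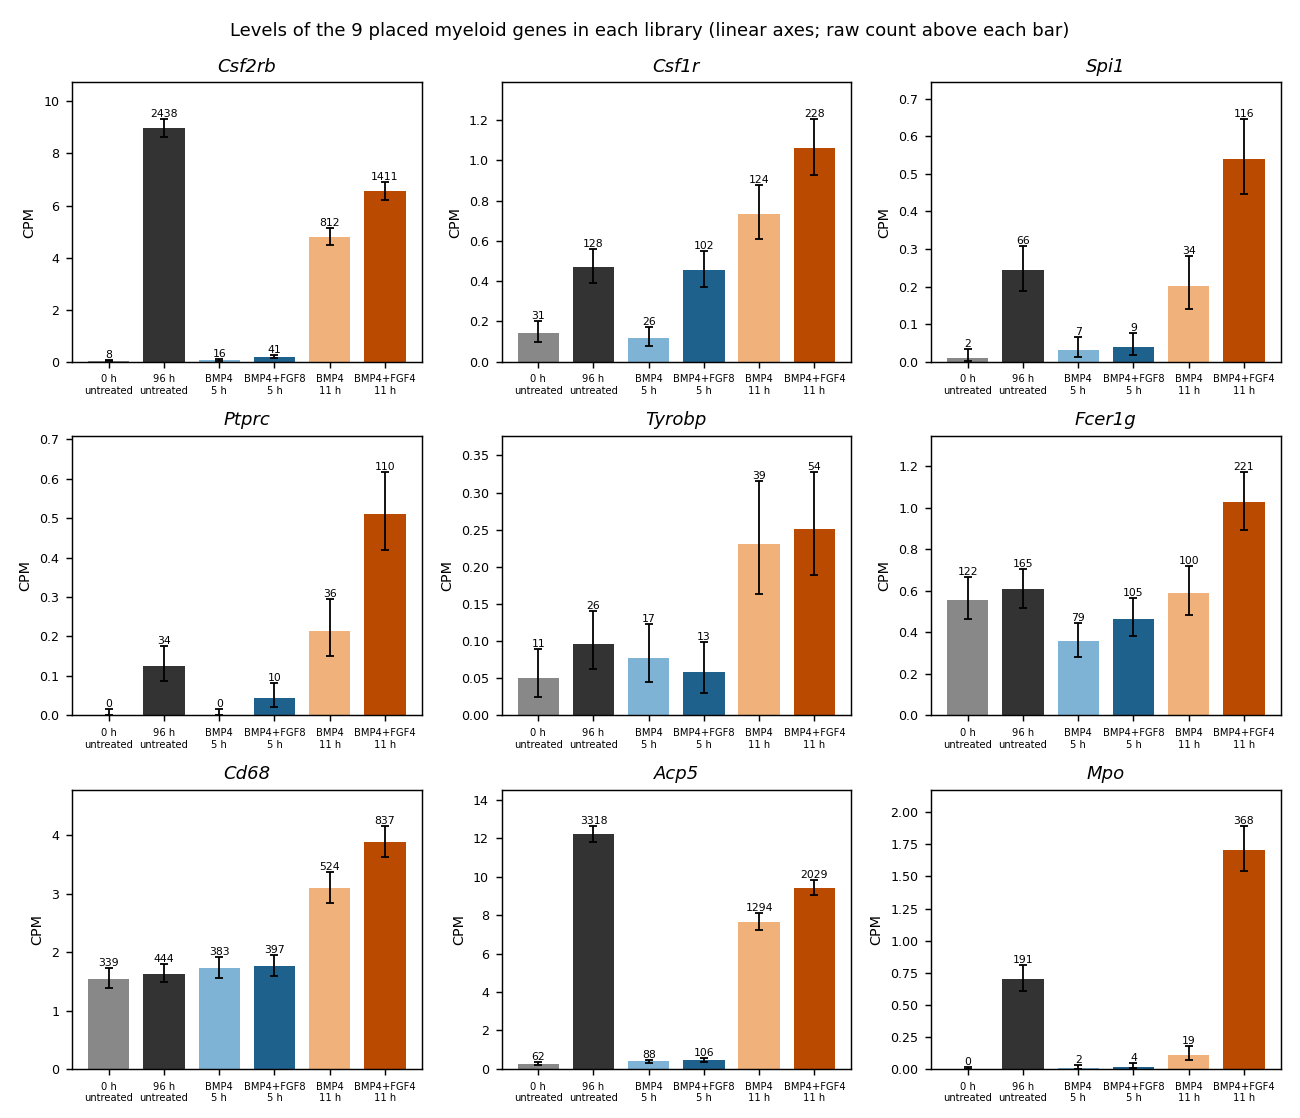
Level of each placed gene in the 6 libraries, as CPM on linear axes that start at 0, with 95% counting intervals and the raw count above each bar. Csf2rb and Acp5 are high at 96 h and in both 11 h libraries and low in the other 3, while Cd68 and Fcer1g are present in every library.

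The receptor gene Csf2rb (chromosome 15, 78325752 to 78353847, plus strand, GRCm38) was nearly absent at 0 h and much higher at 96 h. It had 8 counts at 0 h, 2438 at 96 h, 16 with BMP4 at 5 h, 41 with BMP4 and FGF8 at 5 h, 812 with BMP4 at 11 h and 1411 with BMP4 and FGF4 at 11 h. The 96 h library and both 11 h libraries, at 8.97, 4.81 and 6.55 CPM, were far above the other 3, which lay between 0.0365 and 0.182 CPM. The rise from 0 h to 96 h was 245-fold (124 to 569). Csf2rb2, a near-identical mouse paralog that serves the IL-3 receptor, had 42 and 664 counts at 0 h and 96 h, so the ratio of Csf2rb to Csf2rb2 counts was 0.190 (0.0772 to 0.411) at 0 h and 3.67 (3.37 to 4.01) at 96 h. The authors' counting could split reads between the copies, and between Csf2rb and Mir7676-2, a microRNA gene in its exon on the same strand that had 29 counts at 0 h and 1530 at 96 h.

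Csf1r had 31 counts at 0 h, 128 at 96 h, 26 with BMP4 at 5 h, 102 with BMP4 and FGF8 at 5 h, 124 with BMP4 at 11 h and 228 with BMP4 and FGF4 at 11 h. It was low in the 0 h and BMP4 5 h libraries, at 0.142 and 0.118 CPM, and highest with BMP4 and FGF4, at 1.06 CPM. In contrast to Csf2rb, its level with BMP4 and FGF8 (0.453 CPM) was close to that of 96 h (0.471 CPM), with a ratio of 0.962 (0.735 to 1.26). An exon of Hmgxb3 overlaps Csf1r on the opposite strand, and whether counting used strand is not given in the sources used here. Hmgxb3 had 7971 counts with BMP4 and 7718 with BMP4 and FGF8 at 5 h.

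Spi1 (chromosome 2, 91082390 to 91115756, plus strand) had 2 counts at 0 h, 66 at 96 h, 7 with BMP4 at 5 h, 9 with BMP4 and FGF8 at 5 h, 34 with BMP4 at 11 h and 116 with BMP4 and FGF4 at 11 h. The 3 libraries with more than 30 counts are those in which Csf2rb was high. Its ratio of 96 h to 0 h was 26.6 (7.07 to 224), a wide interval because it rests on 2 counts. Spi1 followed Csf1r only in part: with BMP4 and FGF8 there were 11.3 (5.74 to 25.5) Csf1r counts for each Spi1 count, against 1.94 (1.43 to 2.65) at 96 h.

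Ptprc (CD45, a phosphatase on leukocytes, chromosome 1, 138062861 to 138175708, minus strand) had 0 counts at 0 h and 0 in the library of BMP4 at 5 h. It had 34 counts at 96 h, 10 with BMP4 and FGF8 at 5 h, 36 with BMP4 at 11 h and 110 with BMP4 and FGF4 at 11 h. Against the floor of 3 counts per library it was at least 9.13-fold higher at 96 h than at 0 h. Its highest level was 0.511 CPM.

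The adaptor genes were present in every library. Tyrobp (chromosome 7, 30413760 to 30417585, plus strand) had 11 counts at 0 h, 26 at 96 h, 17 with BMP4 at 5 h, 13 with BMP4 and FGF8 at 5 h, 39 with BMP4 at 11 h and 54 with BMP4 and FGF4 at 11 h. Fcer1g (chromosome 1, 171229572 to 171234365, minus strand) had 122, 165, 79, 105, 100 and 221 counts in the same order of libraries. Neither passed a rule in any of the 9 comparisons made. For 96 h over 0 h, the Fcer1g ratio was 1.09 (0.857 to 1.39) and the Tyrobp ratio 1.90 (0.909 to 4.27), so a change of Tyrobp up to 4.27-fold lies within its counting error.

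Among the lysosomal genes, Cd68 (chromosome 11, 69664213 to 69666153, minus strand) was present in every library, with 339 counts at 0 h, 444 at 96 h, 383 with BMP4 at 5 h, 397 with BMP4 and FGF8 at 5 h, 524 with BMP4 at 11 h and 837 with BMP4 and FGF4 at 11 h. It lay between 1.55 and 1.76 CPM in the first 4 of these and at 3.10 and 3.89 CPM in the 11 h libraries. Acp5 (chromosome 9, 22126727 to 22135711, minus strand) shared the pattern of Csf2rb, with 62, 3318, 88, 106, 1294 and 2029 counts in that order. From 0 h to 96 h it rose 43.1-fold (33.5 to 56.4), from 0.283 to 12.2 CPM. Exons of 6530413G14Rik overlap Acp5 on the opposite strand.

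Mpo (chromosome 11, 87793581 to 87804413, plus strand) had 0 counts at 0 h, 191 at 96 h, 2 with BMP4 at 5 h, 4 with BMP4 and FGF8 at 5 h, 19 with BMP4 at 11 h and 368 with BMP4 and FGF4 at 11 h. It was thus high in 2 libraries, at 0.703 and 1.71 CPM, and at 0.112 CPM or less in the other 4. The BMP4 11 h library, high in Csf2rb and Acp5, was low in Mpo. For each Csf2rb count there were 0.0783 (0.0673 to 0.0908) Mpo counts at 96 h, 0.0234 (0.0140 to 0.0368) with BMP4 at 11 h and 0.261 (0.232 to 0.293) with BMP4 and FGF4 at 11 h. Gm11505, an antisense gene, overlaps exons of Mpo.

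Lyz2 (chromosome 10, 117277331 to 117282321, minus strand) had 4 counts at 0 h and 98 at 96 h, a ratio of 19.7 (7.47 to 73.9). Its paralog Lyz1, which shares reads with it, had 2 and 15. Between the securely placed neighbours Lyve1 and Lzic, each growth factor column has 3 values for the 4 names Lyz1, Lyz2, Lyzl1 and Lyzl4. In order they are 6, 4 and 8 for BMP4 at 5 h, 17, 320 and 14 for BMP4 and FGF8 at 5 h, 51, 422 and 6 for BMP4 at 11 h, and 40, 372 and 8 for BMP4 and FGF4 at 11 h. Which of them belongs to Lyz2 was not decided, and they enter no comparison.

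Per kilobase of annotated exon, levels at 96 h ran in the order Acp5 (6.01 CPM per kb), Cd68 (1.30), Csf2rb (1.23), Fcer1g (0.695), Lyz2 (0.274), Mpo (0.205), Tyrobp (0.143), Spi1 (0.0901), Csf1r (0.0816) and Ptprc (0.00683). The counting intervals of Cd68 and Csf2rb overlap, as do those of each pair of neighbours from Lyz2 to Csf1r. At 0 h the order began with Cd68 (1.23 CPM per kb), Fcer1g (0.638) and Acp5 (0.140). Cd68 held 59.0% of the counts of the 9 genes at 0 h (exact interval 54.8% to 63.0%) and 6.52% at 96 h, where Acp5 held 48.7% and Csf2rb 35.8%.

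In culture without growth factors, 6 of the 9 placed genes rose from 0 h to 96 h by the interval rule (Csf1r, Ptprc, Spi1, Acp5, Csf2rb and Mpo), against 4.85% of all genes. The interval rule share was 7.87% among genes with a mean of 10 to 100 counts and 9.65% at 100 to 1000. By the fold rule 3 were higher (Acp5, Csf2rb and Mpo), against 3.88% of all genes. Lyz2 also rose by the interval rule. None was lower. The genes were chosen with these values known, so the contrast with the background says nothing about them beyond their own values. Mpo was at least 51.3-fold higher, and Csf1r rose 3.33-fold (2.23 to 5.10), the smallest of the rises. The median log2 ratio of the 9 genes, with 0.5 CPM added, was 0.54, beside 0.00 over all genes.

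In the plot of ratios with their intervals, Csf2rb, Acp5, Spi1, Mpo and Ptprc lie farthest above 2-fold and Csf1r nearer to it. Cd68 and Fcer1g lie near 1, and the interval of Tyrobp spans both 1 and 2-fold.

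**Figure D2:**
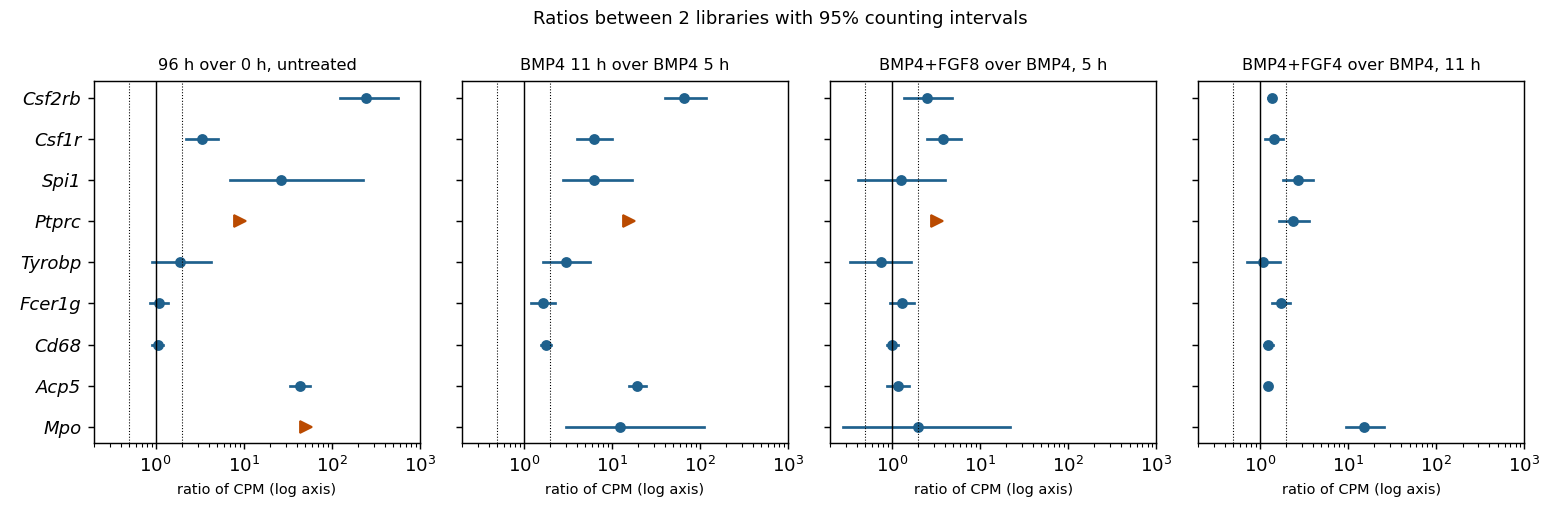
Ratio of CPM between 2 libraries for each gene in 4 comparisons, on log axes, with 95% counting intervals (lines). Solid and dotted vertical lines mark ratios of 1 and 2-fold, and triangles mark lower bounds where the other library had 0 counts; with FGF4 at 11 h, Mpo lies farthest from 1.

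With BMP4 at 5 h, most levels were lower than at 96 h and close to those at 0 h. Against 96 h, Cd68 was at 1.06 (0.922 to 1.22) and Tyrobp at 0.803 (0.409 to 1.54), intervals that include 1. The same 6 genes that rose at 96 h fell against the 96 h library by the interval rule (background 4.16% lower), and Acp5, Csf2rb and Mpo did by the fold rule (3.44%). Both comparisons use the 96 h library. Among genes with a mean of 10 to 100 counts, 6.50% were lower than at 96 h by the interval rule, and 8.29% at 100 to 1000. Csf2rb was lower by 124-fold (76.2 to 217) and Acp5 by 30.7-fold (24.8 to 38.4). Against 0 h, none of the 9 genes differed by the interval rule (background 0.832% higher and 0.346% lower) or the fold rule (0.592% and 0.253%). Acp5, at 1.40-fold (1.00 to 1.98), had an interval just off 1, and Fcer1g, at 0.641-fold (0.477 to 0.857), had one below 1.

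With BMP4 at 11 h, some genes were above and some below their 96 h levels. Against 96 h, no gene differed by the fold rule (background 2.66% higher and 0.332% lower), and Mpo alone fell by the interval rule, 6.25-fold (3.89 to 10.6; background 0.457% lower and 4.41% higher). Csf2rb and Acp5 were at 0.536 (0.494 to 0.580) and 0.627 (0.588 to 0.669) of their 96 h levels, and Cd68 was 1.90-fold higher (1.67 to 2.16). Tyrobp was at 2.41 (1.43 to 4.13), Ptprc at 1.70 (1.04 to 2.81) and Csf1r at 1.56 (1.21 to 2.01), while the intervals of Spi1 and Fcer1g included 1. Against BMP4 at 5 h, 6 genes rose by the interval rule (4.4% of all genes higher) and Acp5 and Csf2rb by the fold rule (2.84%). The ratios were 66.4 (40.7 to 117) for Csf2rb, 19.2 (15.5 to 24.2) for Acp5, 12.4 (up to 110) for Mpo, 6.36 (2.77 to 17.0) for Spi1 and 6.24 (4.07 to 9.93) for Csf1r. Ptprc was at least 15.7-fold higher. Csf1r stands at the limit of the fold rule, with a log2 ratio of 1.00, and passed it when a stricter placement changed the scaling.

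Adding FGF8 to BMP4 for 5 h went with more Csf1r and a trace of Ptprc. Csf1r rose 3.86-fold (2.49 to 6.18), from 26 to 102 counts, and Ptprc, at 0 and 10 counts, was at least 3.28-fold higher. These 2 passed the interval rule (background 0.311% higher), and none passed the fold rule (0.202%). Csf2rb was 2.52-fold higher (1.38 to 4.81), an interval that reaches below 2-fold. Spi1 was at 1.26 (0.419 to 3.99) and Cd68 at 1.02 (0.883 to 1.18). With all counts halved, Csf1r alone passed. Red blood cell genes moved with this pair: their summed level was 28.9 CPM with BMP4 and 155 CPM with FGF8 added, and 6 of 10 rose. Their part in the Csf1r difference was not tested. Against 96 h, Spi1, Acp5, Csf2rb and Mpo were lower in the FGF8 library by the interval rule (3.96%), and Acp5, Csf2rb and Mpo by the fold rule (3.29%). The interval rule share was 6.09% among genes with a mean of 10 to 100 counts and 7.78% at 100 to 1000.

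Adding FGF4 to BMP4 for 11 h went with a large difference in Mpo. It rose 15.2-fold (9.60 to 25.5), from 19 to 368 counts, and was the 1 gene of the set to pass either rule (background 1.36% higher by the fold rule and 1.44% by the interval rule). Spi1, at 2.68-fold (1.81 to 4.05), Ptprc, at 2.398-fold (1.63 to 3.60), and Fcer1g, at 1.73-fold (1.36 to 2.22), were higher with intervals that include 2-fold. Csf1r (1.44-fold), Csf2rb (1.36-fold), Cd68 (1.25-fold) and Acp5 (1.23-fold) differed less, and Tyrobp was at 1.09 (0.707 to 1.69). Endothelial and fibroblast genes moved with this pair, the first summing to 90.6 and 200.5 CPM and the second to 532 and 1280 CPM, and 9 of 14 and 9 of 13 rose. Their part in the Mpo difference was not tested.

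Set against 96 h, the FGF4 library had Cd68 higher by the fold rule (background 1.52%) and Ptprc, Cd68 and Mpo by the interval rule (2.86%), at 4.08-fold (2.76 to 6.19), 2.38-fold (2.12 to 2.68) and 2.43-fold (2.04 to 2.91). Csf2rb, at 0.731 (0.684 to 0.780), and Acp5, at 0.772 (0.730 to 0.816), were below their 96 h levels. With halved counts Mpo no longer passed.

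The 11 h libraries were also higher than 96 h in weakly expressed genes at large. Among 2415 placed genes with a mean of 10 to 100 counts, 13.0% were higher and 0.870% lower by the interval rule for BMP4 at 11 h over 96 h, 8.70% and 0.704% for BMP4 and FGF4 over 96 h, and 11.8% and 0.621% for BMP4 at 11 h over 5 h. For FGF4 over BMP4 alone at 11 h the shares were 2.44% and 1.66%, and for FGF8 over BMP4 alone at 5 h 0.745% and 0.787%. Ptprc, Spi1, Tyrobp and Mpo have such means. Among 4051 placed genes with a mean of 100 to 1000 counts, 6.37% were higher and 0.963% lower for BMP4 at 11 h over 96 h. For BMP4 and FGF4 over 96 h these were 4.99% and 0.346%, and for BMP4 at 11 h over 5 h 7.50% and 0.864%. Cd68, Csf1r, Fcer1g and Csf2rb have means in that range. The part of this shift in the 11 h values of all these members was not tested.

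**Figure D3:**
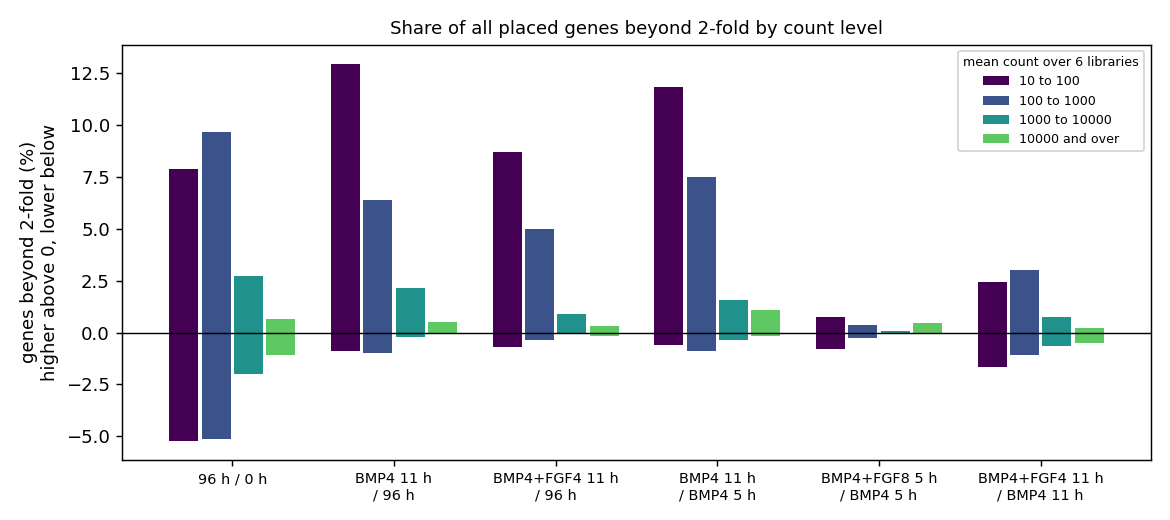
Percent of all placed genes beyond 2-fold by the interval rule, higher above 0 and lower below it, by mean count over the 6 libraries, in 6 comparisons. The bars for 10 to 100 counts reach 13.0% in BMP4 11 h over 96 h and lie under 1% in both directions for FGF8 at 5 h.

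Other genes of the pathway come from lists set by their known roles, with earlier results of these data known. In 96 h over 0 h, 4.85% of all genes rose and 3.03% fell by the interval rule, and 3.88% and 2.31% were higher and lower by the fold rule. For BMP4 and FGF4 over BMP4 alone at 11 h, 1.44% rose and 0.891% fell, and 0.693% were lower by the fold rule. Among genes with a mean of 10 to 100 counts, 7.87% rose and 5.22% fell from 0 h to 96 h, so 1 gene in a list of 12 to 18 is close to these shares. The lists' median log2 ratios of 96 h over 0 h, with 0.5 CPM added, were -0.06 for cytokines and receptors, 0.20 for transcription factors, 0.29 for the adaptor pathway, 0.20 for macrophage surface and complement genes, 0.14 for phagocyte lysosome genes and 0.43 for pan-leukocyte genes, beside 0.00 over all genes. Of 16 placed genes for myeloid cytokines and their receptors, 3 rose from 0 h to 96 h (Csf2rb2, the G-CSF receptor gene Csf3r and the chemokine receptor gene Cx3cr1) and 1 fell (Cxcr4). Csf1, the ligand of Csf1r, had 890 and 1084 counts there, and with BMP4 and FGF4 at 11 h it rose 2.22-fold (2.05 to 2.41) over BMP4, from 834 to 2362 counts. Csf3r rose with it, from 12 to 170 counts. Of 18 transcription factor genes, 3 rose by 96 h: Nfe2, from 83 to 1189 counts, Ikzf1, from 182 to 1615, and Gfi1, from 7 to 61. Nfe2 is best known from red cells and megakaryocytes and Ikzf1 from lymphocytes. Irf8 and Cebpa, which direct monocyte and granulocyte fates, had 239 and 363, and 134 and 148 counts.

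In the pathway downstream of the adaptors, 4 of 12 genes rose by 96 h, where 4.85% of all genes rose. The rises were Inpp5d (29 to 324 counts), Btk (18 to 140), Lcp2 (20 to 99) and Plcg2 (1202 to 3814). The adaptor gene Blnk was among those that fell (1175 to 103). Inpp5d, Btk and Lcp2 also rose with FGF4 over BMP4 alone at 11 h, and Blnk fell. Pan-leukocyte genes rose in 4 of 14 cases by 96 h (Laptm5, Lcp1, Was and Rac2), and Rac2 went from 0 to 126 counts. Of 14 phagocyte lysosome, protease and oxidase genes 1 rose, close to the share of all genes. It was the oxidase subunit gene Ncf4, from 0 to 187 counts, while the cathepsin gene Ctss had 3187 and 4271 counts. The oxidase gene Cybb, at 0 and 16 counts, was the 1 gene of that list to rise with FGF8 at 5 h (0.311% of all genes).

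Several genes that define tissue macrophages had few counts. By the interval rule, 4.85% of all genes rose from 0 h to 96 h and 3.03% fell. Of 12 placed genes for macrophage surface and complement proteins, 3 rose by 96 h (Itgb2, Lyve1 and Msr1) and 1 fell (Cd163, from 18 to 2 counts), and their summed level was 20.02 CPM at 0 h, 28.8 at 96 h, 20.1 with BMP4 at 5 h, 20.2 with BMP4 and FGF8, 25.9 with BMP4 at 11 h and 47.4 with BMP4 and FGF4. Emr1, the gene of the F4/80 antigen, had 14, 23, 10, 34, 67 and 44 counts at 0 h, 96 h, BMP4 5 h, BMP4 and FGF8 5 h, BMP4 11 h and BMP4 and FGF4 11 h. C1qb, a complement gene of macrophages, had 0 counts at 0 h and 23 at 96 h and was not placed elsewhere. Against 96 h, 2 of the 12 rose with BMP4 at 11 h (Emr1 and Itgam), where 4.41% of all genes rose. With BMP4 and FGF4 at 11 h over 96 h, 4 rose (Itgam, Mrc1, Cd14 and Lyve1), where 2.86% of all genes rose. With FGF4 over BMP4 alone at 11 h, the mannose receptor gene Mrc1 rose 7.70-fold (5.89 to 10.2), from 59 to 579 counts, and Lyve1 14.1-fold (10.9 to 18.6), from 61 to 1097 counts. Both are also known from endothelial cells, whose list summed to 90.6 and 200.5 CPM in that pair; its part in these rises was not tested.

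Red blood cell and megakaryocyte genes moved with the set, while lymphoid genes neither rose nor fell by 96 h. The shares of all genes that rose and fell by 96 h were 4.85% and 3.03%. All 10 placed red blood cell genes rose from 0 h to 96 h, and their summed level was 22.3 CPM at 0 h, 5187 at 96 h, 28.9 with BMP4 at 5 h, 155 with BMP4 and FGF8 at 5 h, 4870 with BMP4 at 11 h and 3179 with BMP4 and FGF4 at 11 h. Csf2rb and Acp5 were high in the same 3 libraries. Megakaryocyte genes rose in 5 of 7 cases by 96 h, and Itga2b and Vwf were among those that rose with FGF4 over BMP4 alone at 11 h. Their summed level was 14.1 CPM at 96 h, 8.22 with BMP4 at 11 h and 18.1 with BMP4 and FGF4, highest and lowest among these 3 in the libraries where Mpo was. Of 7 osteoclast genes 2 rose by 96 h (Itgb3 and Car2, which platelets and red cells also use). None of 7 lymphoid genes rose or fell by 96 h, with 7.92 and 7.53 CPM summed, nor did the 2 placed mast cell genes (Gata2 and Hdc). Of 12 listed mast cell genes, 3 were among the deposited names. In BMP4 at 11 h over 5 h both placed mast cell genes and 2 lymphoid genes (Cd4 and Cd79a) rose, against 4.4% of all genes. The mast cell genes summed to 1.23 CPM at 0 h, 2.25 at 96 h and 1.47 with BMP4 at 5 h. With BMP4 at 11 h they summed to 4.46 CPM, and to 5.02 with FGF4 added. Tailbud and presomitic genes ran the other way, with 12 of 13 lower at 96 h and summed levels of 529 CPM at 0 h, 51.7 at 96 h, 489.8 with BMP4 at 5 h, 624 with FGF8 added, 259.98 with BMP4 at 11 h and 81.2 with FGF4 added, and none of 12 proliferation genes passed.

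The few granule genes that could be placed did not follow Mpo. Of 16 listed, 7 were among the deposited names, 5 were placed and 1 reached 1 CPM in some library. Of 5 placed, none rose and Itgb2l fell from 0 h to 96 h, and the summed level was 1.64 and 1.17 CPM. Elane, the elastase gene of the same precursors as Mpo, had 47 and 44 counts, and it fell from 39 to 4 counts with FGF4 over BMP4 alone at 11 h, where Mpo rose. Prtn3, another granule protease gene, passed neither rule in that pair. In bulk RNA, fewer cells of a type and less RNA per cell cannot be told apart, and this holds for each level given here. Endothelial genes summed to 51.7 CPM at 0 h and 145 at 96 h, and fibroblast genes to 194 and 863 CPM. The part of these cell types in the levels of the set was not tested.

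**Figure D4:**
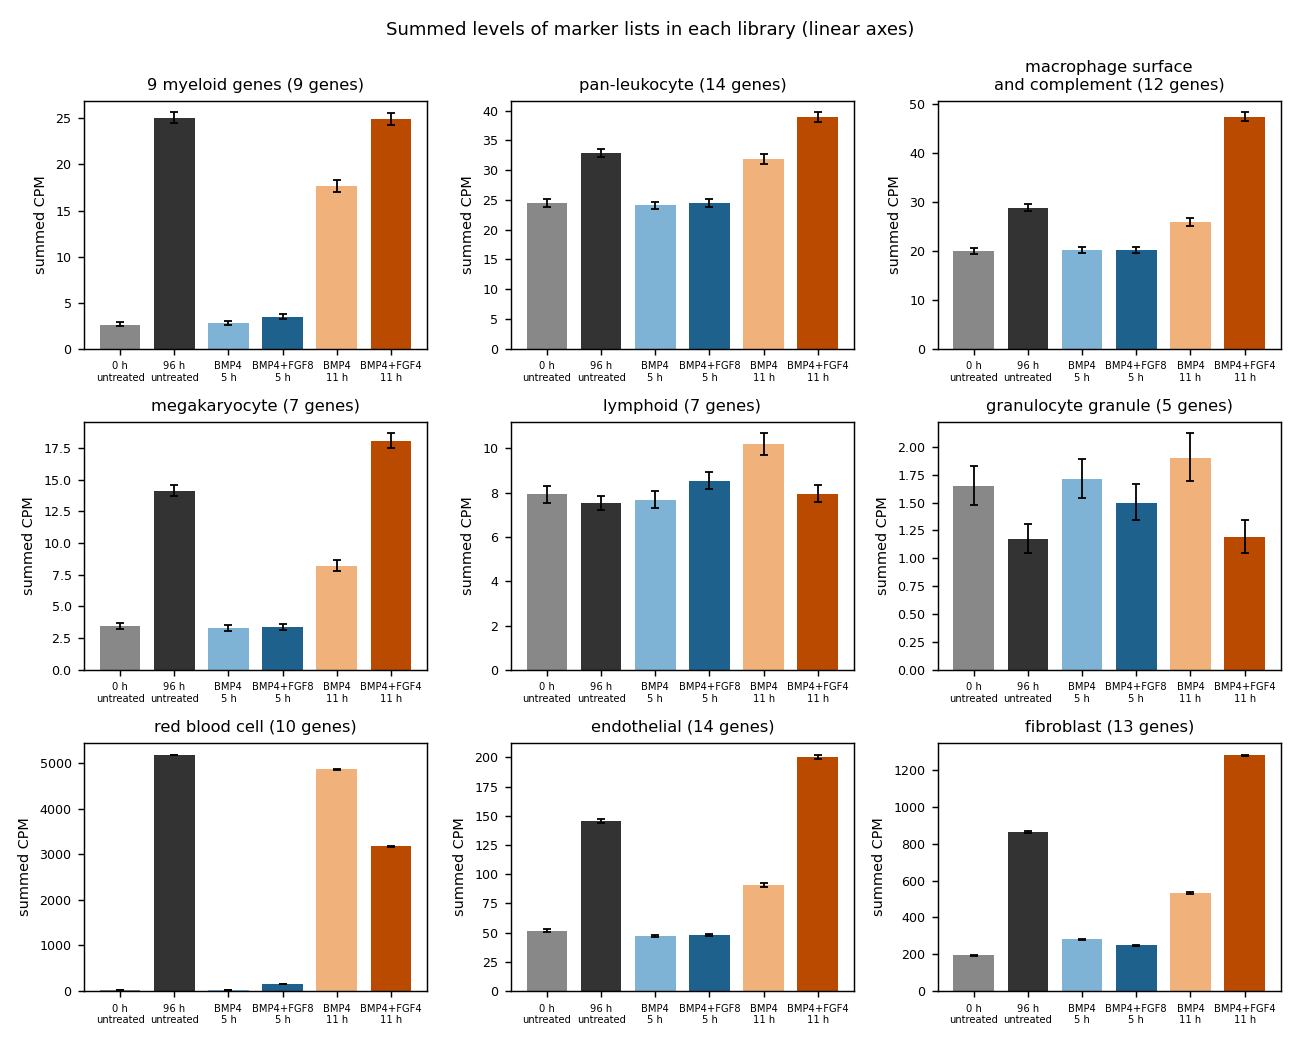
Summed CPM of the placed genes of 9 lists in each library, on linear axes that start at 0, with 95% counting intervals. The 9 myeloid genes sum to 2.63 CPM at 0 h and 25.1 CPM at 96 h; the red blood cell list is high in the same 3 libraries, while the lymphoid list lies between 7.53 and 10.2 CPM throughout.

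Summed over the 9 genes, levels were 2.63 CPM at 0 h, 25.1 at 96 h, 2.79 with BMP4 at 5 h, 3.50 with BMP4 and FGF8 at 5 h, 17.6 with BMP4 at 11 h and 24.96 with BMP4 and FGF4 at 11 h. Csf2rb and Acp5 made up most of the high sums. Without them the sums were 2.31, 3.88, 2.32, 2.84, 5.18 and 8.98 CPM, highest with BMP4 and FGF4 at 11 h. With all 9 genes, the intervals of the 96 h sum (24.5 to 25.7) and of the BMP4 and FGF4 sum (24.3 to 25.6) overlap.

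Across the 6 libraries, the genes outside the set whose centred log2 profile lay nearest to the set's median profile were Kcnd3, Zfhx3, Ccser1, Dusp2 and Ppfia4, at Euclidean distances of 0.122 to 0.210, followed by Sh3d21, Myh3, Slit1, Edil3 and Crim1, up to 0.225. Kcnd3, a potassium channel gene, had 1.21 CPM at 0 h, 1.76 at 96 h and 2.90 with BMP4 and FGF4. These profiles were taken after adding 0.5 CPM, which flattens those of weakly expressed genes. Ptprc lay at 0.0935 from that median and Spi1 at 0.213, while Acp5 and Csf2rb lay at 3.61 and 3.69.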

How the data were processed

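The authors deposited raw read counts per gene without normalization. Per the submitters' processing notes, the tools were STAR 2.4.0e, cutadapt, HTSeq and DESeq on build mm10, with no roles given. A stranded total RNA kit was used per the labels' protocols, and how reads were counted is not stated there. Between 65.4% and 70.9% of counts from 1 to 20 are even, so both reads of a pair may have been counted, which would make the intervals too narrow.

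The table lists 19342 names, but the growth factor columns hold 19415 (BMP4 5 h), 19437 (BMP4 and FGF8), 19686 (BMP4 11 h) and 19826 (BMP4 and FGF4) values. Names were sorted without regard to case, and each column was aligned to the untreated columns in order. Genes were kept where the cost margin over every alternative row was 5 or more in all 4 columns. Correlations of log2 counts with the untreated columns were 0.0458 to 0.136 row by row and 0.960 to 0.991 after placement. The alignment seeks like levels, so this is no independent check. The 17070 genes kept hold 97.3% to 97.4% of counts. On simulated columns, 94.9% of 18959 genes were kept and 99.9% of those were right. For mean counts of 5 to 100 these were 78.3% and 99.5%. Levels of the kept genes in these columns were simulated from the placement itself. The simulation therefore cannot show whether the real columns were placed rightly.

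CPM used TMM effective library sizes (edgeR 4.0.16, R 4.3.3). Ratios have exact (Clopper-Pearson) 95% intervals (scipy 1.17.1). With 1 library per condition and genes chosen with values known, no test was fitted. Alternatives changed the added CPM, the filter, the fold, the scaling, the placement and the count unit. Members and lists were chosen with earlier results of these data known. All 10 members are named; from the other lists, those with the largest changes from 0 h to 96 h or that define a cell type are named, and genes named for other comparisons, with Irf8, Cebpa, Ctss, Csf1, Prtn3 and Elane, were chosen after their values were seen. Some genes of the other lists are not reported here by name. Gene positions come from the GENCODE annotation of GRCm38, the assembly called mm10.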

Additional observations from a re-analysis of the deposited data

How the results depend on the processing

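Of 138 alternative values, 119 kept within 1.5 times of the count, or within the counting interval of the sum, and 19 moved. Those kept include fold-rule counts of 0 that stayed 0. Under the fold rule, halving changed the counting interval and not the fold, so its calls could hardly move. For BMP4 and FGF4 at 11 h over 96 h the fold rule counted 1 gene, and 0 with 2 CPM added, with a minimum of 5 CPM in some library and with a fold of 3. For BMP4 and FGF4 over BMP4 alone at 11 h the count of 1 became 0 with 2 CPM added and with the 5 CPM filter, which removes Mpo. Mpo also dropped out for 96 h over 0 h and for both 5 h libraries over 96 h. There the fold-rule count of 3 became 2, within 1.5 times, with 2 CPM added, with the 5 CPM filter and with a fold of 3. The interval rule, chosen after seeing the data, counted 6 genes for 96 h over 0 h, 6 for BMP4 at 5 h over 96 h, 1 for BMP4 at 11 h over 96 h, 3 for BMP4 and FGF4 over 96 h, 6 for BMP4 at 11 h over 5 h and 2 for FGF8 over BMP4 alone. With counts halved as well these were 5, 6, 1, 2, 5 and 1. Summed CPM of the 9 placed genes was 16.64 with BMP4 at 11 h and 26.03 with BMP4 and FGF4 when total counts alone scaled the libraries. No count changed its direction. The sums of 96 h and of BMP4 and FGF4, 25.05 and 24.96 CPM, changed order with DESeq2 size factors (25 and 25.11), with total counts (24.97 and 26.03) and with a placement margin of 10 (25.03 and 25.05). No paired analysis was possible because each condition has 1 library. With no replicates, variation between cultures is unknown, and genes of few counts, such as Ptprc, Spi1 and Tyrobp, have wide intervals and a less secure placement.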
